A study of Mus musculus with 128 samples.

Results

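Livers of BALB/c mice were set against livers of C57BL6/J mice 6 h after the start of a timed meal taken with plain water. The comparison rests on 10 RNA-sequencing libraries, 5 from BALB/c livers and 5 from C57BL6/J livers, chosen by the strain, drink and time that their labels give. They are 2 of the 26 groups of the series, of which 24 hold 5 libraries and 2 hold 4. All mice were wild-type males bought at 8 weeks of age and trained for 1 week to a timed meal of chow with 10% of its calories from fat and 64.5% from carbohydrate. The food hours given for these mice are 7 pm until 10 pm. On the last day the mice were fasted for 21 h, went without water from 4 pm, and received chow and water at 7 pm. The BALB/c libraries and the C57BL6/J libraries shared all of this and differed by strain. That each library is a separate mouse was read from the protocol and is not stated outright. The p-values of single genes and the standard errors of their fold changes rest on a spread estimated over all groups of the series. They do not measure the spread of these 10 libraries alone. The permutation p-values for sums over genes rest on these 10 libraries. Either spread may in part be technical. The question is which liver transcripts differ between the strains 6 h after the meal began. A second question is whether those differences also stand at the other times and with the sugar drinks of the series.

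The BALB/c and C57BL/6 lineages are inbred strains that carry different alleles at many loci. They differ in haplotype at the major histocompatibility complex (MHC), whose class I and class II genes encode the proteins that present peptides to T cells, and in the beta-globin genes. Some known alleles concern genes that the liver expresses: C57BL/6J mice carry a deletion in Nnt, the mitochondrial enzyme that makes NADPH from NADH, and the BALB/cJ substrain carries an insertion in Zhx2, a repressor that lowers alpha-fetoprotein in adult liver. Several gene families that the liver expresses strongly, among them the major urinary proteins, the alpha-1-antitrypsins and the cytochrome P450s, are clusters of near-identical copies that vary between strains. The reads of both strains were processed against mm10, an assembly of C57BL/6J, per the submitters' processing notes and their coordinates. How far strain variants move reads on or off a gene was not tested, and counts within near-identical families are uncertain for that reason.

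Each of the 10 libraries held between 21292100 and 29009404 gene counts. The 8 hepatocyte markers were high in every library, with summed levels of 62470 to 86900 CPM in BALB/c livers and 89240 to 123300 CPM in C57BL6/J livers. CPM are read counts scaled to a common library size, with TMM factors. Transcripts of neighbouring organs stood out in some libraries: kidney markers summed to 1130 CPM in BALB/c replicate 1, where 13 of 13 markers reached 1 CPM, and to at most 1.95 CPM in every other library. Adrenal gland markers summed to 698 CPM in C57BL6/J replicate 2, where 13 of 13 reached 1 CPM, and to 51.8 CPM in C57BL6/J replicate 3, where 11 of 13 did. The BALB/c libraries held 3.26 to 25.3 CPM of them. Skeletal muscle markers ranged from 4.43 to 341 CPM in BALB/c livers and from 1.92 to 344 CPM in C57BL6/J livers, lowest in replicate 4 of each strain. B and plasma cell markers summed to 20.4 to 45.2 CPM in BALB/c livers, above all C57BL6/J livers, which gave 6.17 to 14.0 CPM. By the test given below, 2 of the 7 tested were higher in BALB/c (28.6% called, beside 11.5% over all genes). At 0, 3 and 12 h, 2, 0 and 1 were higher and none lower, with median log2 fold changes of 0.95, -0.185 and -0.349. In bulk tissue, fewer cells of a type and less RNA per cell cannot be told apart.

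Of 16886 genes tested, 1947 (11.5%) were called different between the strains at an adjusted p of at most 0.05 (edgeR quasi-likelihood test, Benjamini-Hochberg adjustment), 989 higher (5.86%) and 958 lower (5.67%) in BALB/c. The difference was at least 2-fold for 1149 of them (6.8% of all genes tested), 571 higher and 578 lower in BALB/c. For 1504 of the 1947 genes, or 77.2%, no BALB/c library overlapped the range of the C57BL6/J libraries; over all genes tested, 2267 (13.4%) did not overlap. The share of genes called was 14.6% on chromosome 4, 14.2% on chromosome 8 and 14.0% on chromosome 17, the upper end among the autosomes, and 8.07% on chromosome 16, the lower end. Chromosome 4 holds the major urinary protein genes and chromosome 17 the MHC. BALB/c replicate 1 and C57BL6/J replicate 2 held the most kidney and adrenal transcripts. With both left out, 1511 genes were called, and 1433 of the 1947 (73.6%) were called in the same direction. C57BL6/J replicate 3, with 51.8 CPM of adrenal markers, stayed in.

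Most of the strain difference at 6 h was also present at the other times with water. Other livers were sampled at 0 h (fasted), 3 h and 12 h, 5 of each strain at each time, and share no library with the 6 h comparison. In those, 2753 genes (16.3% of those tested) were called between the strains at 0 h, 2172 (12.9%) at 3 h and 2130 (12.6%) at 12 h. Of the 1947 genes called at 6 h, 1248 (64.1%) were also called in the same direction at 0 h, 1292 (66.4%) at 3 h and 1240 (63.7%) at 12 h. These make up 45.3%, 59.5% and 58.2% of the calls at 0, 3 and 12 h. A further 6 were called in the opposite direction at 0 h, 1 at 3 h and none at 12 h. Some 885 genes (45.5%) were called in the same direction at all 4 times, and 323 (16.6%) were called at 6 h alone. The 323 included all 9 tested kidney markers and 6 of the 7 adrenal markers called at 6 h. Fxyd2, a sodium pump subunit abundant in kidney, had a log2 fold change of 7.00 at 6 h and a mean of 0.05 at the other times. When BALB/c replicate 1 and C57BL6/J replicate 2 were both left out, 135 of the 323 (41.8%) were called in the same direction. So were 822 of the 885 (92.9%), beside 73.6% of all 1947. The median absolute log2 fold change at 6 h was 1.26 in the 323 and 1.82 in the 885. Why the shares differ was not tested. With glucose, sucrose and fructose drinks at 6 h, a comparison over 30 other libraries called 5077 genes (30.1%), among them 1785 of the 1947 (91.7% of the 6 h calls with water and 35.2% of those with sugar), all in the same direction. The sugar comparison also held transcripts of other organs. Of 9 tested kidney markers 8 were called higher in BALB/c (median log2 fold change 4.30). Of 10 stomach and exocrine pancreas markers 8 were called lower (median -3.48). Their part in the overlap was not tested.

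**Figure D1:**
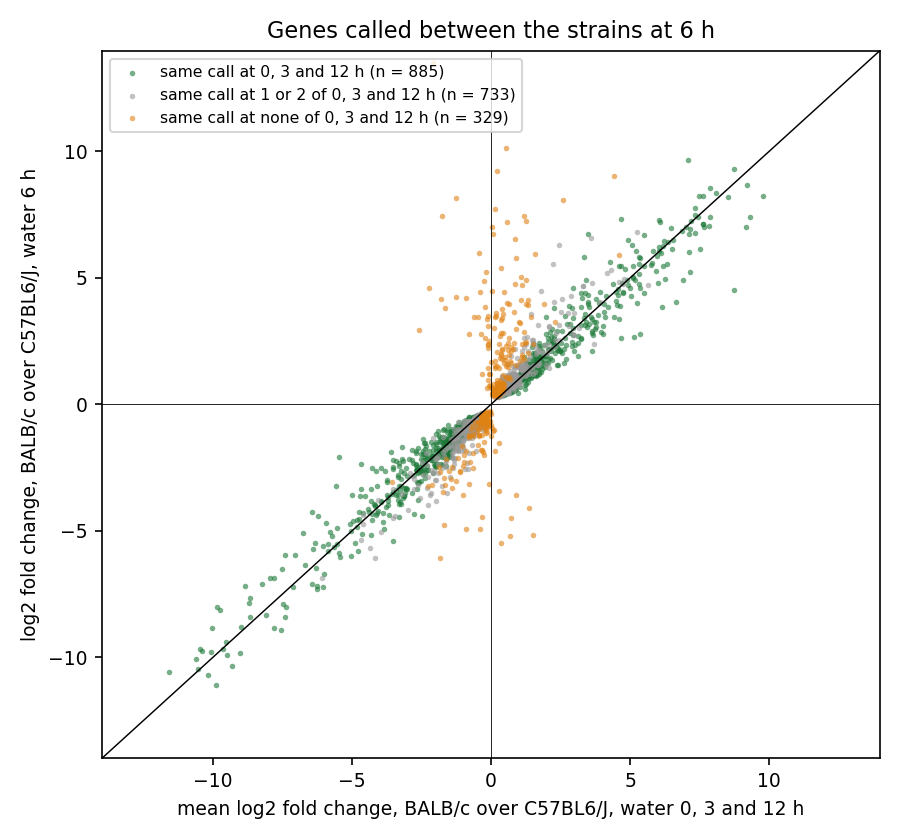
Log2 fold change of BALB/c over C57BL6/J at water 6 h (vertical axis) against the mean of the same fold change at water 0, 3 and 12 h (horizontal axis) for the 1947 genes called at 6 h, with the line of equality. The 885 genes called the same way at 0, 3 and 12 h (green) lie along the line, 733 (grey) were called the same way at 1 or 2 of these times, and 329 (orange) at none, many of them near 0 on the horizontal axis.

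Major urinary proteins are lipocalins that male mouse liver secretes in bulk and that carry pheromones into urine. Their genes lie in a cluster on chromosome 4. Of the 21 listed, 18 could be tested, and 16 of these were lower in BALB/c livers, none higher, against 5.67% called lower over all genes. The remaining 2 tested, Mup3 and Mup21, were not called. Mup11 was nearly absent from BALB/c livers and Mup3 was not called, so the reference sequence around the start of each is shown (250 bases before to 50 after the start site, sense strand, from RefSeq on GRCm38.p6). Capitals mark the 33 of 265 aligned bases that differ between them, with 38 further bases in gaps:
Mup11, chr4:60662346-60662645 (minus strand): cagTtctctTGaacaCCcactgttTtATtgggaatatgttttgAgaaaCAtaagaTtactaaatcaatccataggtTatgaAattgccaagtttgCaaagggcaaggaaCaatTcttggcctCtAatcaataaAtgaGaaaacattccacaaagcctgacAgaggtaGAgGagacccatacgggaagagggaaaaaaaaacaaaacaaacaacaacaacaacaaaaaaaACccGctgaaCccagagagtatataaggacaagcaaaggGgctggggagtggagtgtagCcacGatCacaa
Mup3, chr4:62087268-62087567 (minus strand): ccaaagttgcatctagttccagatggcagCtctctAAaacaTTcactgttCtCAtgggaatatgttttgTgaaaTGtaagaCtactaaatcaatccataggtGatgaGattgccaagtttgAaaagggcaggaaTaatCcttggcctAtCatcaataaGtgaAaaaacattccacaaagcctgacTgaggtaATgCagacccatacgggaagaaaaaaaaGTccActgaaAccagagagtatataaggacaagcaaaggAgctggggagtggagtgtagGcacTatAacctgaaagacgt
The Mup11 promoter shares 98.5% of aligned bases with that of Mup7, 97.0% with that of Mup10 and 99.6% with those of Mup15 and Mup17, against 87.5% with that of Mup3. The Mup7 value rests on 194 aligned bases. Mup7, Mup10, Mup11, Mup15 and Mup17 were picked among the genes with the lowest fold changes, so that all were lower in BALB/c follows from the choice. A link between promoter sequence and the strain difference was not tested. This is the C57BL/6J reference, and the sequence of these promoters in BALB/c was not used here.

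Mup11 (chr4:60658466-60662411, minus strand) had 0.148, 0.188, 0.176, 0.679 and 0.846 CPM in the 5 BALB/c livers, against 406.5, 448, 557, 359.8 and 184 CPM in the 5 C57BL6/J livers. Mup7 (chr4:60066469-60070475) had 0.445 to 1.91 CPM in BALB/c livers, against 461 to 1320 CPM in C57BL6/J livers. The ranges of the strains lay far apart in both genes. The log2 fold change was -9.91 ± 0.93 (SE) for Mup11 and -9.67 ± 1.01 for Mup7 (edgeR adjusted p = 5.7e-16 and 1.0e-13). Mup1, Mup8, Mup18 and Mup19 had 0 reads in all 5 BALB/c livers. Against 3 counts over the BALB/c group, Mup1 was at least 358-fold lower in BALB/c than its 8.34 ± 4.66 CPM (SD, n = 5) in C57BL6/J livers. Mup20, the pheromone darcin, was retained at a lower level: it had 212, 169.6, 418, 428 and 763 CPM in BALB/c livers, against 2544, 4027, 4393, 4521 and 4210 CPM in C57BL6/J livers. The strains did not overlap, and Mup20 had a log2 fold change of -3.31 ± 0.37 (edgeR adjusted p = 1.3e-12).

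Mup3, the most abundant member in both strains, had 6327, 5599, 13275, 11184 and 11514 CPM in BALB/c livers, against 6155, 11145, 12874, 11203 and 13286 CPM in C57BL6/J livers. The strains overlapped, and the 95% interval of its log2 fold change ran from -0.78 to 0.40 (edgeR adjusted p = 0.81). Summed over the 21 genes, Mup counts were 10080 ± 3651 CPM in BALB/c livers and 16630 ± 3499 CPM in C57BL6/J livers (SD, n = 5 each; exact two-sided permutation p = 0.032, where 5 against 5 allows 0.0079 at the least). Without Mup3, Mup20 and Mup21 the sum was 1.90 ± 0.95 CPM in BALB/c livers and 1630 ± 552 CPM in C57BL6/J livers. At 0, 3 and 12 h the list again had 16 of 18 tested genes lower in BALB/c and none higher.

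**Figure D2:**
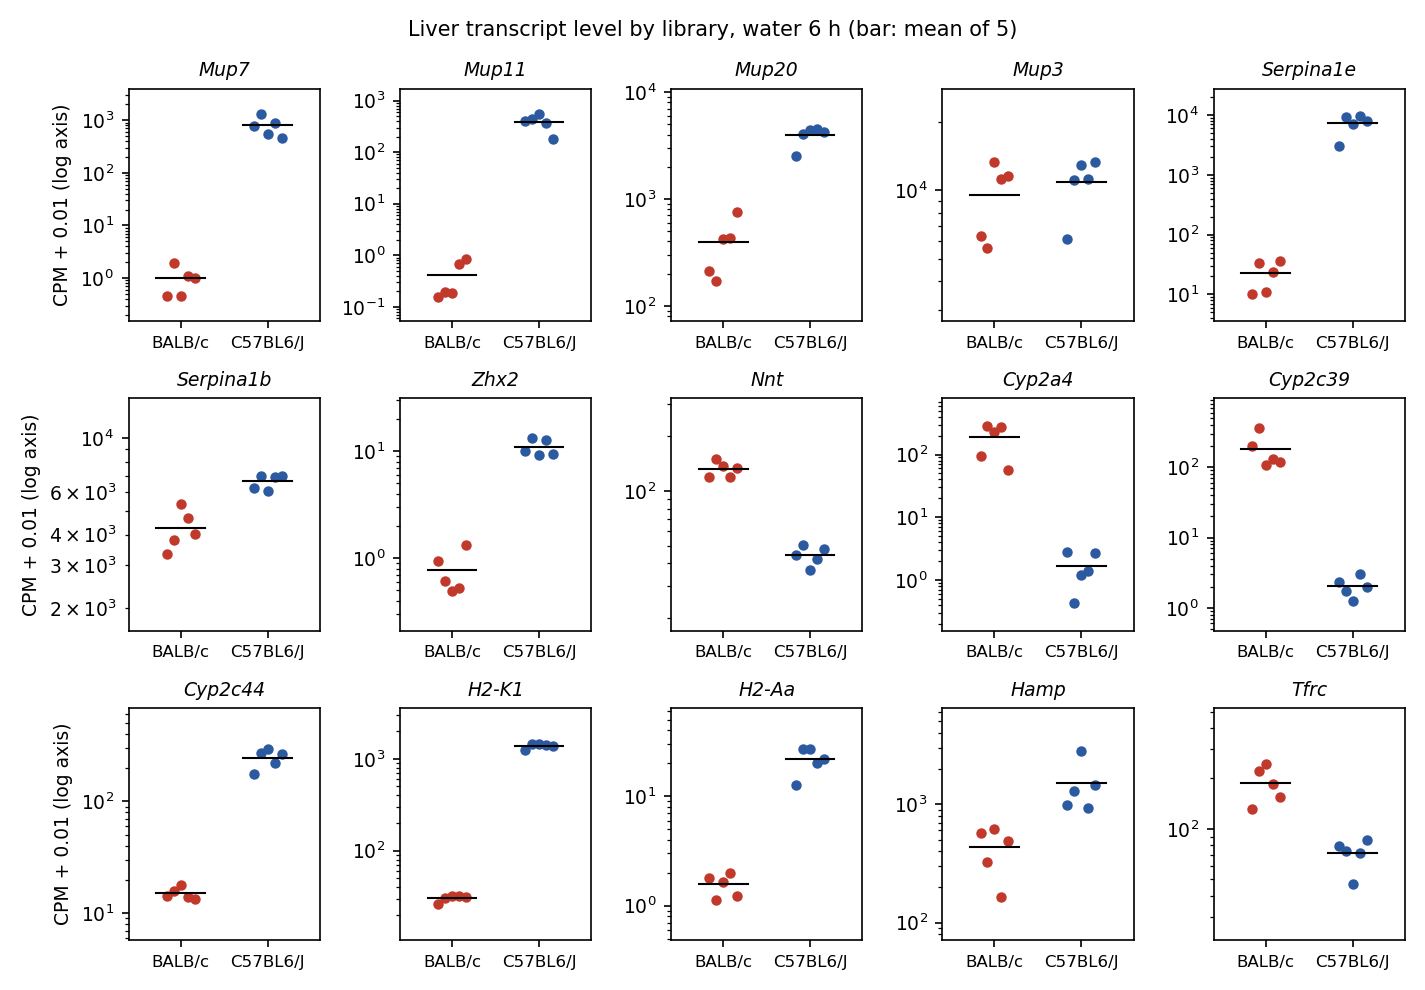
Level of 15 genes in each library (points, CPM + 0.01, log axis; bar, mean of 5), BALB/c left and C57BL6/J right in every panel. The strains do not overlap in any panel but that of Mup3, where both reach about the same level.

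Alpha-1-antitrypsin, the main blood inhibitor of neutrophil elastase, is encoded in mice by the copies Serpina1a to Serpina1e on chromosome 12. The difference between the strains varied from copy to copy. Serpina1e (chr12:103946931-103958975, minus strand) had 10.1, 33.9, 11.0, 23.7 and 36.2 CPM in BALB/c livers, against 3055, 9436, 7198, 9669 and 7891 CPM in C57BL6/J livers, a log2 fold change of -8.34 ± 0.58 (edgeR adjusted p = 6.5e-24). Serpina1d averaged 333 ± 70.6 CPM in BALB/c and 3545 ± 518 CPM in C57BL6/J (log2 fold change -3.41 ± 0.21). Serpina1a and Serpina1b were also lower, by smaller amounts: 1580 ± 421 CPM in BALB/c against 3285 ± 348 CPM in C57BL6/J for Serpina1a (-1.06 ± 0.19), and 4242 ± 779 CPM against 6631 ± 445 CPM for Serpina1b (-0.64 ± 0.14). Serpina1c was not called, with 801 to 1933 CPM in BALB/c and 953 to 2651 CPM in C57BL6/J (95% interval -1.08 to 0.37). A pseudogene in the same cluster, Gm8893, went the other way, at 812 ± 232 CPM in BALB/c and 37.2 ± 7.78 CPM in C57BL6/J. The 5 genes together gave 7477 ± 1641 CPM in BALB/c and 22570 ± 3309 CPM in C57BL6/J (exact two-sided permutation p = 0.0079), and with Gm8893 added the ratio of BALB/c to C57BL6/J was 0.367.

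The reference promoters of Serpina1e, the copy with the largest difference, and Serpina1b, the copy with the highest level in BALB/c, share 98.4% of 248 aligned bases. They are shown with the motif GTTAAT, part of the site of the hepatocyte factor HNF1, in capitals (either strand searched; RefSeq, GRCm38.p6, sense strand):
Serpina1e, chr12:103956848-103957147 (minus strand): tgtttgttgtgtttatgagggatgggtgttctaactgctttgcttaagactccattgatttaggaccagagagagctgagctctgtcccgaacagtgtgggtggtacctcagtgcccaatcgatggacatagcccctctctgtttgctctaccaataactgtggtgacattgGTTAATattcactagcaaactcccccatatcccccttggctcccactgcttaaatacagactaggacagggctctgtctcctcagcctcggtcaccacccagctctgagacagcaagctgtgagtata
Serpina1b, chr12:103738140-103738439 (minus strand): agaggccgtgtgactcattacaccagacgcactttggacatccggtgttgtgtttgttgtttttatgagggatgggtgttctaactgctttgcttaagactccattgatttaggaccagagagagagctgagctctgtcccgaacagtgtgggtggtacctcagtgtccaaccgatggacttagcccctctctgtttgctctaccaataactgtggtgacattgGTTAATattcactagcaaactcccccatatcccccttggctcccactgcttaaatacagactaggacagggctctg
The motif occurs once in each of the 5 Serpina1 promoters, 78 bases before the start site in Serpina1e and 26 bases before it in Serpina1b, and in 2332 (7.1%) of 32851 promoters of the same length. From the motif to the end of the printed Serpina1b stretch the letters are the same in both genes. The distances thus differ by where each start site is annotated. A match describes these letters only.

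Zhx2, the transcriptional repressor on chromosome 15, had 0.927, 0.60, 0.485, 0.519 and 1.31 CPM in BALB/c livers, against 10.0, 13.2, 9.13, 12.8 and 9.46 CPM in C57BL6/J livers. Every BALB/c liver was below every C57BL6/J liver, and the log2 fold change was -3.82 ± 0.31 (edgeR adjusted p = 2.1e-19). In the list of Zhx2 and the genes it is reported to repress or sustain, 1 of 10 was higher and 3 were lower in BALB/c, Zhx2 included. Over all genes 5.86% were higher and 5.67% lower. The median log2 fold change of the list was 0.07 beside 0.02 over all genes. At 0, 3 and 12 h the list had 1, 3 and 3 members higher and 3 lower each time, beside 16.3%, 12.9% and 12.6% of all genes called. Its medians at those times were 0.78, 0.47 and 0.67. Afp and H19, textbook targets of repression, were not called at 6 h. Afp averaged 2.32 ± 0.96 CPM in BALB/c and 2.93 ± 0.42 CPM in C57BL6/J, with a 95% interval of the log2 fold change from -1.12 to 0.45. H19, the imprinted long noncoding RNA, ranged from 0.679 to 13.5 CPM in BALB/c and from 0.303 to 15.3 CPM in C57BL6/J. The member that was higher at 6 h was Cyp2a4, and the lower ones beside Zhx2 were Mup20 and Cyp4a12b, a fatty acid hydroxylase typical of male liver.

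Genes typical of male liver were lower where they were called. Of 15 listed, 5 were lower in BALB/c and none higher, beside 5.67% and 5.86% over all genes, with a median log2 fold change of -0.35. The 5 were Serpina1e, Mup20, Cyp4a12b, Susd4 and C6. Susd4, a complement regulator, averaged 1.27 ± 0.88 CPM in BALB/c and 15.8 ± 5.75 CPM in C57BL6/J, and C6, a component of the membrane attack complex, 37.4 ± 18.0 CPM and 207 ± 54.1 CPM. The other 10 were not called, among them Cyp2d9, Cyp7b1, Hsd3b5 and Slco1a1, whose log2 fold changes lay between -0.32 and 0.26. Of 17 tested genes typical of female liver, 5 were higher and 4 lower in BALB/c, with a median of 0.04. With BALB/c replicate 1 and C57BL6/J replicate 2 both left out, 3 were higher. The levels of the 5 that were higher spread widely: in BALB/c livers Cyp2a4 averaged 188 CPM and Fmo2, a flavin monooxygenase, 90.9 CPM, whereas Cyp2b13 and Cyp3a44 averaged 1.40 and 0.53 CPM.

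Cytochrome P450s of families 1 to 3 oxidise drugs, steroids and other lipids. Of 43 tested, 8 were higher and 9 lower in BALB/c livers, beside 5.86% and 5.67% over all genes, and the median log2 fold change was -0.07. Cyp2a4, a steroid hydroxylase more abundant in female liver, had 96.0, 283, 227, 279 and 56.3 CPM in BALB/c livers, against 2.82, 0.419, 1.20, 1.36 and 2.64 CPM in C57BL6/J livers (log2 fold change 6.79 ± 1.34, edgeR adjusted p = 5.7e-05). Its near-identical neighbour Cyp2a5 was at about the same level in both strains, 1381 ± 351 CPM in BALB/c and 1350 ± 121 CPM in C57BL6/J. Cyp2c39, which hydroxylates retinoic acid, had 107 to 358 CPM in BALB/c livers, against 1.25 to 3.03 CPM in C57BL6/J livers (6.47 ± 0.51). Cyp2c44, an arachidonic acid epoxygenase, was lower, at 13.4 to 17.9 CPM in BALB/c against 174 to 293 CPM in C57BL6/J (-4.02 ± 0.33). Cyp2c37 (-2.72 ± 0.36), Cyp2c40 (-3.49 ± 0.52) and Cyp2c69 (-6.85 ± 0.80, or -7.73 without BALB/c replicate 5) were lower too, whereas Cyp2c29 was higher (1.17 ± 0.28), with 2248 ± 442 CPM in BALB/c and 1001 ± 250 CPM in C57BL6/J. The 15 Cyp2c genes together gave 4311 ± 696 CPM in BALB/c and 4001 ± 276 CPM in C57BL6/J (exact two-sided permutation p = 0.39), so single members differed in both directions while the sums overlapped. The abundant Cyp2e1 and Cyp3a11 were not called, with log2 fold changes of 0.13 and 0.01.

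Other enzymes of drug and ester metabolism are set here beside 5.86% of all genes higher and 5.67% lower. Among 16 carboxylesterases, Ces1b was higher, at 540 ± 117 CPM in BALB/c and 203 ± 17.4 CPM in C57BL6/J, and 4 were lower, or 2 when BALB/c replicate 1 was left out. Ces1c, the esterase secreted into mouse plasma, averaged 991 ± 200.1 CPM in BALB/c and 2690 ± 132 CPM in C57BL6/J (log2 fold change -1.44 ± 0.28). Among 22 glutathione transferases 4 were higher and 1 lower in BALB/c; without BALB/c replicate 5, or without C57BL6/J replicate 1, 2 were higher. Gstm2 averaged 157 ± 34.1 CPM in BALB/c and 62.7 ± 13.9 CPM in C57BL6/J (1.33 ± 0.22). Sult5a1, a sulfotransferase, was at 0.44 CPM in BALB/c and 10.0 CPM in C57BL6/J (-4.53), and Sult1c2 at 16.7 CPM and 3.10 CPM (2.43).

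MHC class I molecules present cytosolic peptides, and the list also holds B2m, the light chain, and the peptide-loading machinery. Of 20 tested, 9 were lower and 1 higher in BALB/c, beside 5.67% and 5.86% over all genes, or 2 higher without C57BL6/J replicate 3, with a median log2 fold change of -0.38. H2-K1 (chr17:33996017-34000333, minus strand), a classical class I heavy chain, had 26.0, 30.6, 32.4, 32.3 and 31 CPM in BALB/c livers, against 1257, 1461, 1445, 1429 and 1378 CPM in C57BL6/J livers. The libraries of each strain lay close together and the log2 fold change was -5.52 ± 0.15, the smallest adjusted p named here (edgeR, 7.2e-58). H2-Q10, which liver secretes, averaged 1096 ± 145 CPM in BALB/c and 2324 ± 129 CPM in C57BL6/J (-1.08 ± 0.17), and B2m 1354 ± 84.4 CPM and 2086 ± 174 CPM (-0.62 ± 0.17). B2m was not called when BALB/c replicate 1 and C57BL6/J replicate 2 were both left out (-0.55). The 15 class I heavy chain genes together gave 1825 ± 166 CPM in BALB/c and 4762 ± 249 CPM in C57BL6/J (exact two-sided permutation p = 0.0079). The haplotype of these genes differs between the strains, and the class I heavy chains are polymorphic and similar to each other.

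MHC class II genes, expressed by antigen-presenting cells, showed 4 of 10 tested lower and 1 higher in BALB/c, beside 5.67% and 5.86% over all genes. Without C57BL6/J replicate 2, 2 were higher. H2-Aa had 1.12 to 2.00 CPM in BALB/c livers, against 12.6 to 27.3 CPM in C57BL6/J livers (-3.81 ± 0.44). The gene annotated as H2-Ea-ps was the reverse: 5.66 to 8.27 CPM in BALB/c livers, against 2 reads in all over the 5 C57BL6/J livers. C57BL/6 mice are known to lack H2-Ea expression. Cd74, the invariant chain that the same cells express, was not called, at 26.8 CPM in BALB/c and 45.0 CPM in C57BL6/J. Of the macrophage markers, 1 of 11 tested differed (9.09%, beside 11.5% over all genes). Marco, a scavenger receptor, averaged 0.64 ± 0.35 CPM in BALB/c and 6.62 ± 1.64 CPM in C57BL6/J. The summed macrophage markers ranged from 157 to 351 CPM in BALB/c and from 286 to 391 CPM in C57BL6/J; their part in the class II difference was not tested.

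In the interferon response, 7 of 35 tested genes were lower and 1 higher in BALB/c, beside 5.67% and 5.86% over all genes, and 4 were lower when the libraries whose names carry a suffix, replicate 2 of both strains here, were left out. Ifi202b, a DNA sensor of the interferon-inducible p200 family, had 1.37 to 2.44 CPM in BALB/c livers and 1 read in all over the C57BL6/J livers. Trim12a averaged 0.11 ± 0.14 CPM in BALB/c and 6.18 ± 0.94 CPM in C57BL6/J, and Oasl1 5.14 ± 1.49 CPM and 21.2 ± 5.82 CPM. Nlrp12, an inflammasome-related sensor named by its fold change, was at 0 to 0.2 CPM in BALB/c livers, against 39.3 to 77.7 CPM in C57BL6/J livers (-8.84 ± 0.60). Irf7 and Isg15, general markers of interferon signalling, were not called, with log2 fold changes of -0.56 and 0.33. Klrb1c, which encodes the NK1.1 antigen that BALB/c mice are known to lack, was at 0.02 CPM in BALB/c and 0.39 CPM in C57BL6/J.

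Nnt had 119, 150.4, 137, 119 and 134.5 CPM in BALB/c livers, against 44.4, 50.5, 36.5, 42.4 and 47.9 CPM in C57BL6/J livers. All BALB/c livers were above all C57BL6/J livers, and the log2 fold change was 1.57 ± 0.18 (edgeR adjusted p = 1.9e-12). A gene-level count does not show which exons the C57BL6/J reads came from. Of the 28 nuclear genes of oxidative phosphorylation none was called, with log2 fold changes between -0.19 and 0.26. Of 13 mitochondrially encoded genes 1 was called (7.69%, beside 11.5% over all genes), mt-Nd3, a complex I subunit. It had 8.51 to 23.6 CPM in BALB/c livers, against 29.1 to 169 CPM in C57BL6/J livers (-2.20 ± 0.49, edgeR adjusted p = 4.7e-04). The mitochondrial share of all counts was 4.48% to 7.53% in BALB/c and 4.44% to 6.77% in C57BL6/J.

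Of the 19 tested genes of iron and metal handling, 3 were called (15.8%, beside 11.5% over all genes), with a median log2 fold change of -0.01. Hamp encodes hepcidin, the liver hormone that blocks iron export into blood. It had 569.6, 322, 616, 164 and 490.4 CPM in BALB/c livers, against 994, 1293, 2817, 937 and 1451 CPM in C57BL6/J livers, a log2 fold change of -1.79 ± 0.45 (edgeR adjusted p = 0.0023). Tfrc, the transferrin receptor, averaged 187 ± 46.1 CPM in BALB/c and 71.7 ± 14.8 CPM in C57BL6/J (1.38 ± 0.28, edgeR adjusted p = 7.5e-05). At 0, 3 and 12 h the log2 fold change of Hamp was -0.16, -0.63 and -0.17 and that of Tfrc 0.74, 1.94 and 1.57. The third was Hamp2, a second hepcidin gene (-1.96 ± 0.50), which was not called without C57BL6/J replicate 1 (-1.35). In all, 1 was higher and 2 lower; without BALB/c replicate 2, 2 were higher, and without C57BL6/J replicate 1, 1 was lower.

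The lists of feeding-regulated metabolism given here ranged from no member called to 21.7%, beside 11.5% over all genes. The Cyp4a fatty acid hydroxylases, a list not among them, had 3 of 10 called (30.0%). The upper end of those given here was glycolysis and glycogen, with 2 higher and 3 lower of 23. The lower ones included Eno1, with a ratio of BALB/c to C57BL6/J of 0.557 alone. With its near-identical copies added the ratio was 0.827 (exact two-sided permutation p = 0.14). Pfkl, the liver phosphofructokinase, was higher (0.64 ± 0.14), and Ppp1r3b, which directs a phosphatase to glycogen, was lower, at 205 ± 14.6 CPM in BALB/c and 479 ± 10.2 CPM in C57BL6/J (-1.22 ± 0.30). Leaving out BALB/c replicate 1 or 5, or C57BL6/J replicate 4 or 5, 1 was higher. In the pentose phosphate and NADPH list 2 of 11 (18.2%) were higher, Nnt and the isomerase gene Rpia (0.78 ± 0.22). With BALB/c replicate 1 and C57BL6/J replicate 2 both left out, 1 was higher. Of 26 genes of cholesterol synthesis and uptake, 1 (3.85%) was called: Sqle, the squalene epoxidase, had 80.2, 40.7, 30.6, 52.9 and 24.7 CPM in BALB/c livers, against 169, 177, 84.3, 181 and 157 CPM in C57BL6/J livers (-1.75 ± 0.45, edgeR adjusted p = 0.0033). The highest BALB/c value lay below the lowest C57BL6/J value. Of 21 lipogenic genes 1 (4.76%) was called, the fatty acid elongase Elovl5, at 399.8 ± 58.6 CPM in BALB/c and 192 ± 30.6 CPM in C57BL6/J (1.06 ± 0.25). Of 18 genes of gluconeogenesis and FoxO1 targets 2 (11.1%) were called, or 1 with BALB/c replicate 1 and C57BL6/J replicate 2 both left out. Pdk4, the kinase that shuts pyruvate out of the mitochondrial dehydrogenase, was higher, at 20.6 ± 3.10 CPM in BALB/c and 7.53 ± 0.90 CPM in C57BL6/J (1.45 ± 0.31). Of 28 genes of fatty acid oxidation 3 were lower and none higher (10.7% called, close to the 11.5% of all genes), with a median log2 fold change of 0.19; 1 was higher without C57BL6/J replicate 3. Among the 3 were Cd36, a fatty acid transporter (-1.08), and Vnn1, a pantetheinase (-2.0). Apoa2, an apolipoprotein of high-density lipoprotein, averaged 5150.3 ± 1199.5 CPM in BALB/c and 12611 ± 2128 CPM in C57BL6/J (-1.29 ± 0.29). None of 14 carbohydrate-response genes, 19 clock genes, 24 ribosome biogenesis genes, 16 immediate early genes and 15 genes of the growth hormone and IGF1 axis was called by edgeR. DESeq2 called 1 of the ribosome biogenesis and 1 of the growth hormone genes. Leaving out a library brought in 2 ribosome biogenesis genes without BALB/c replicate 5 or C57BL6/J replicate 4, and 1 growth hormone gene without replicate 5 of BALB/c or of C57BL6/J.

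For the feeding-regulated genes that were not called, the intervals allow moderate differences. The 95% interval of the log2 fold change was -0.79 to 0.74 for Mvd, a sterol enzyme, -1.45 to 0.28 for Fasn, the fatty acid synthase, -1.05 to 1.46 for Pck1 and -0.10 to 1.52 for G6pc, both enzymes of gluconeogenesis, and -0.22 to 0.62 for the clock factor Arntl. Pck1 ranged from 210.3 to 1495 CPM in BALB/c livers and from 304 to 1193 CPM in C57BL6/J livers, so the libraries of a strain differed more from each other than the strain means did.

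**Figure D3:**
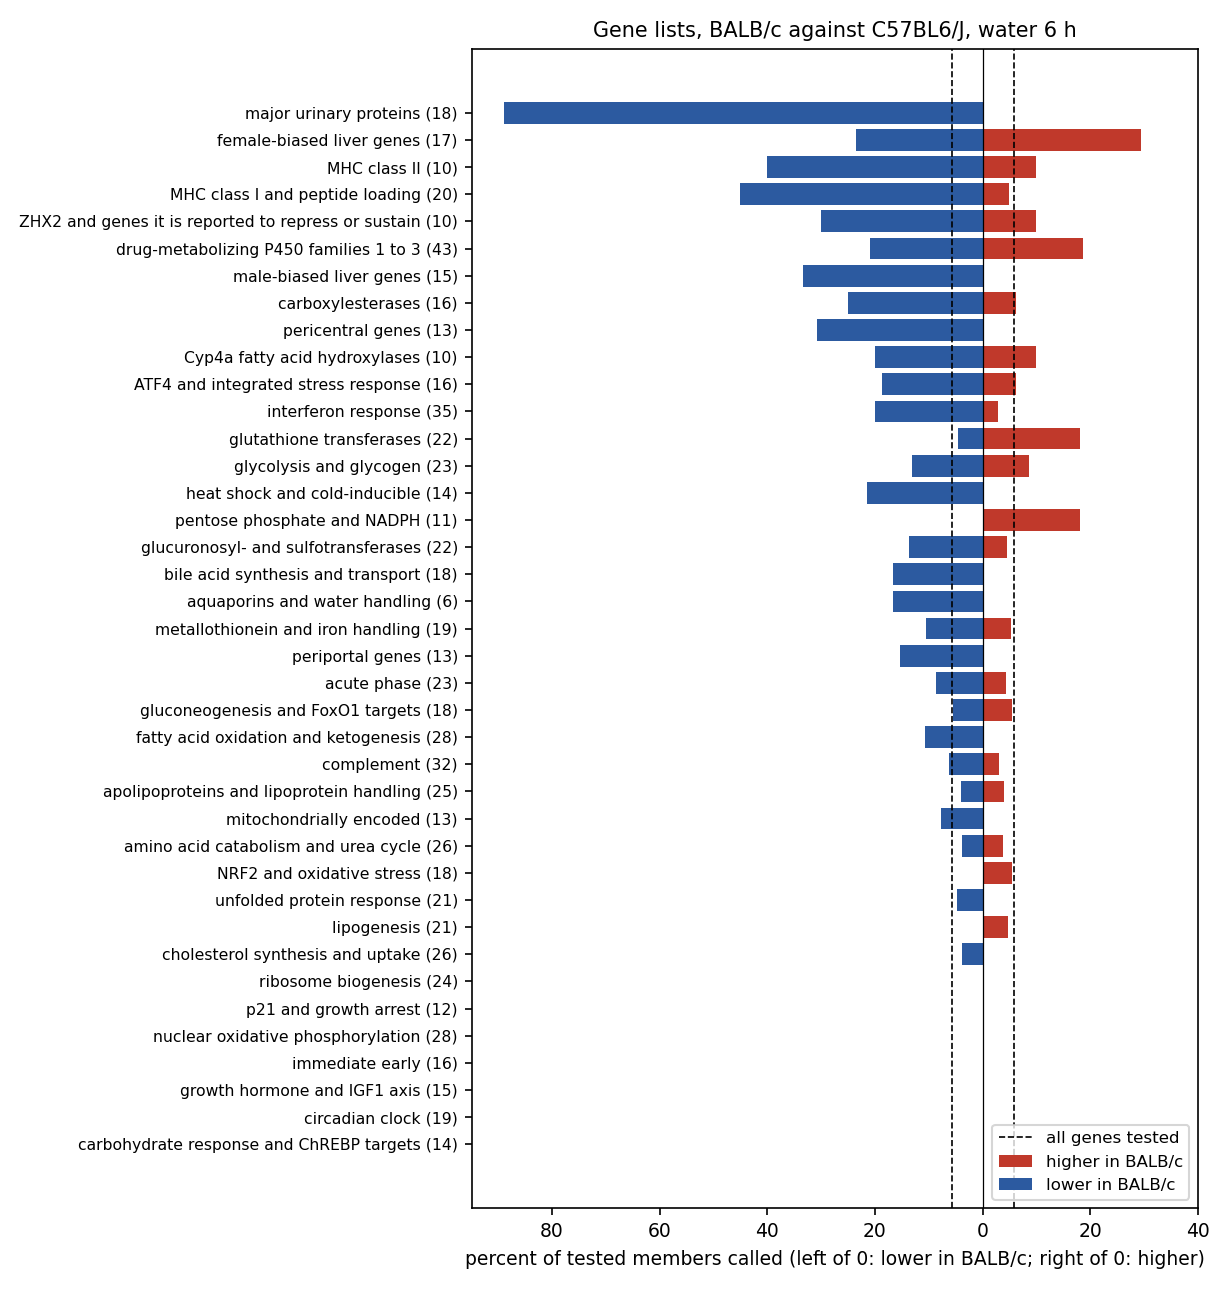
Share of the tested members of each of 39 gene lists (number in brackets) called higher (red, right of 0) or lower (blue, left of 0) in BALB/c at water 6 h; dashed lines give the shares over all genes tested, 5.86% higher and 5.67% lower. The major urinary proteins have the longest bar, and 7 lists have no call.

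The number of sterol genes called differed from time to time. At 0 h, in fasted livers, 20 of the 26 genes of cholesterol synthesis and uptake were lower in BALB/c, with a median log2 fold change of -1.14, beside 7.67% of all genes lower at that time. At 3 h 4 were lower (6.88% of all genes), at 12 h 13 (5.75% of all genes), and at 6 h 1, with a median of -0.25. Cyp51, the lanosterol demethylase, had a log2 fold change of -3.10 at 0 h and -0.91 at 6 h. Cyp51 was called at 6 h without BALB/c replicate 1, at -1.11. The strain difference at 6 h minus its mean at 0, 3 and 12 h was called for none of the 26 genes (lowest edgeR adjusted p = 0.80), with values from -0.03 to 1.16 on the log2 scale and a median of 0.55. In the MHC class I list the count was 9 lower and 1 higher at each of the 4 times.

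**Figure D4:**
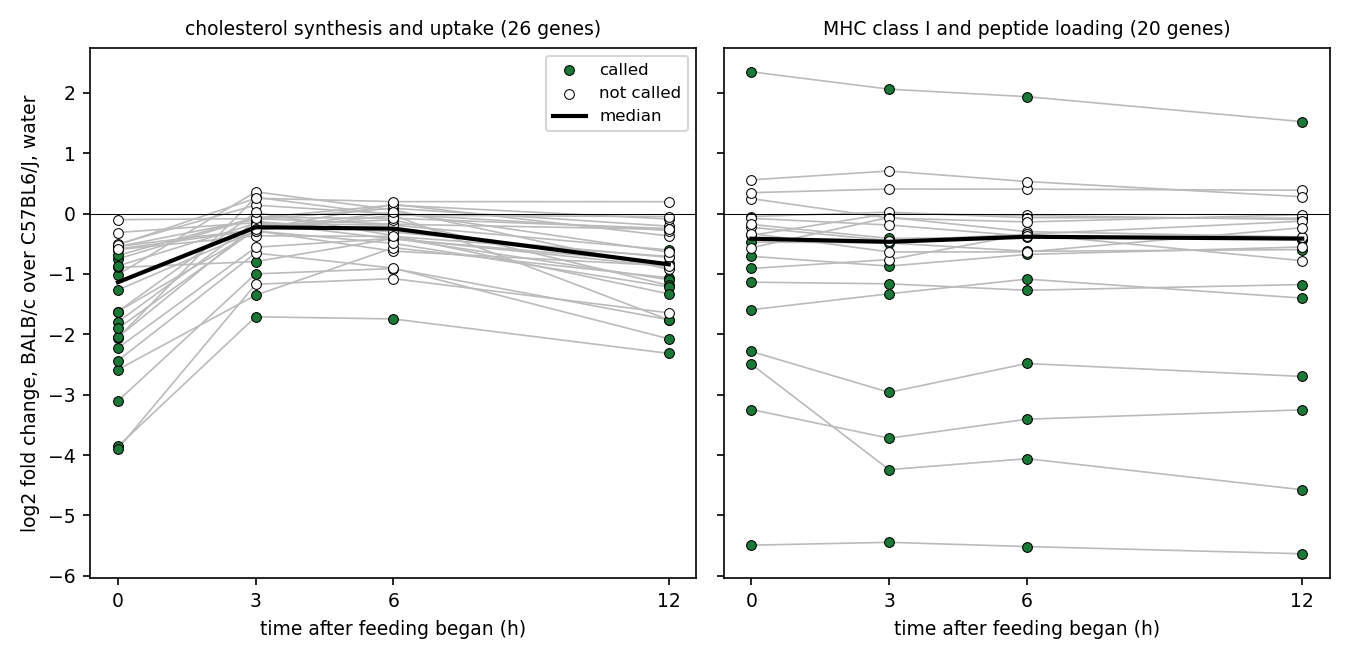
Log2 fold change of BALB/c over C57BL6/J with water at 0, 3, 6 and 12 h for the 26 genes of cholesterol synthesis and uptake (left) and the 20 of MHC class I and peptide loading (right); grey lines join a gene, filled points were called and the black line is the median. The sterol median runs from -1.14 at 0 h to -0.25 at 6 h, while the class I values stay apart gene by gene.

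A further group of differences concerned genes with near-identical copies elsewhere in the genome. Rpl26, a protein of the large ribosomal subunit, had 17.1, 6.41, 21.6, 22.1 and 17.7 CPM in BALB/c livers, against 485, 418, 543, 473 and 525 CPM in C57BL6/J livers (-4.85 ± 0.40, edgeR adjusted p = 4.1e-19). Its processed pseudogene Gm15772 had 235, 195, 278, 304 and 240.2 CPM in BALB/c livers, against 1.31, 1.22, 2.55, 1.67 and 2.39 CPM in C57BL6/J livers (7.10 ± 0.45). The open reading frame of Rpl26 and the transcript of Gm15772 differ at 2 of 438 aligned bases. A stretch of 120 bases around 1 of them (GENCODE M21 transcripts, sense strand, the differing base in capitals) reads:
Rpl26, open reading frame bases 117 to 236: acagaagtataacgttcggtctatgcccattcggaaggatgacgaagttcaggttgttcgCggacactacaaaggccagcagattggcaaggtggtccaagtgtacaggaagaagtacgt
Gm15772, transcript bases 117 to 236: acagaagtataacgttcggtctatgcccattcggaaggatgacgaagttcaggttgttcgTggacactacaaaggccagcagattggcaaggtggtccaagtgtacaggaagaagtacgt
Tpm3, a tropomyosin, and Tpm3-rs7, a copy of it, differ at 3 of 747 aligned bases, all 3 in the stretch below:
Tpm3, open reading frame bases 39 to 158: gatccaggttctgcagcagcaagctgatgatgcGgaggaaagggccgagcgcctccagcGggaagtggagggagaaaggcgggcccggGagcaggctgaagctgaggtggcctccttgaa
Tpm3-rs7, transcript bases 107 to 226: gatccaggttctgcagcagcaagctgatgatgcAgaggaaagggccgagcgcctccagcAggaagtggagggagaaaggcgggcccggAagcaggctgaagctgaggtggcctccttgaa
Tpm3 averaged 29.8 ± 2.16 CPM in BALB/c and 76.8 ± 14.5 CPM in C57BL6/J, and Tpm3-rs7 42.5 ± 2.77 CPM in BALB/c and 0.35 ± 0.23 CPM in C57BL6/J. Each differed between the strains when counted alone. Added up, they gave 72.3 ± 1.86 CPM in BALB/c and 77.1 ± 14.5 CPM in C57BL6/J (exact two-sided permutation p = 0.58), and the strains overlapped.

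Of 9 such genes examined with their copies, chosen after their values were seen, 3 no longer differed in the sum: Tpm3, Eif3j1 (53.3 ± 5.20 CPM in BALB/c and 62.9 ± 14.3 CPM in C57BL6/J, p = 0.24) and Eno1 (509.8 ± 71.7 CPM and 616 ± 127 CPM, p = 0.14, exact permutation tests). For the other 6 the sum stayed lower in BALB/c in every library, with exact p = 0.0079 each. The ratio of BALB/c to C57BL6/J went to 0.545 with copies against 0.0347 alone for Rpl26, to 0.560 against 0.319 for Rps2, to 0.747 against 0.474 for Rplp0 and to 0.148 against 0.105 for Rpl29. Between these parents and their most abundant copy, 1 to 12 aligned bases differed. Across the 1934 called genes with a transcript sequence, 253 (13.1%) shared at least 50% of their 31-base words with another gene, and 85 (4.4%) with a gene called in the opposite direction. The shares over all genes tested were not computed, so neither can be called high or low. Of the 783 pseudogenes tested, 92 were higher and 41 lower in BALB/c, beside 5.86% and 5.67% over all genes.

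**Figure D5:**
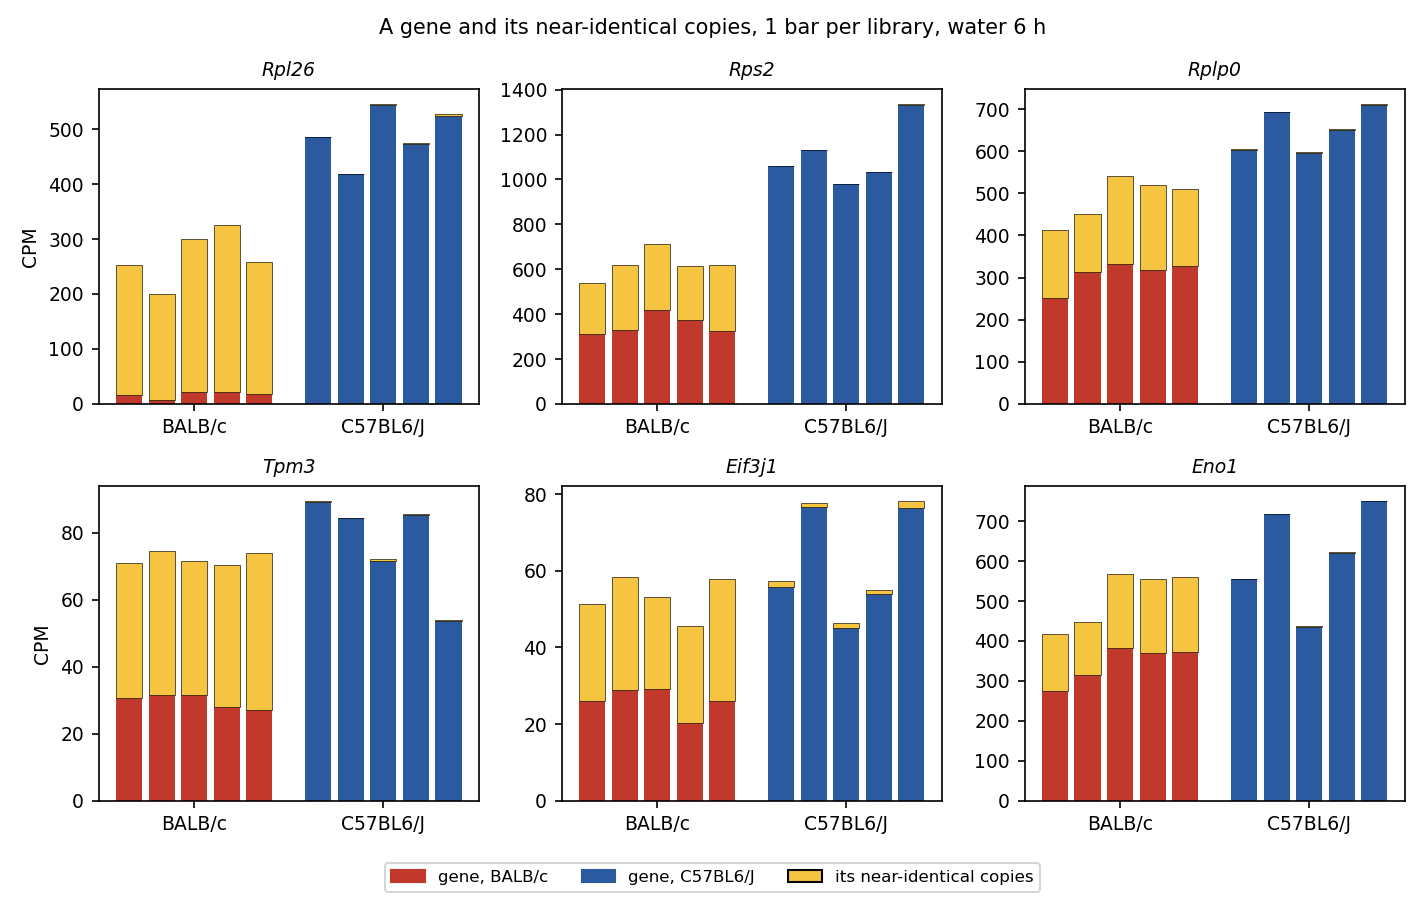
CPM of 6 genes in each of the 5 BALB/c (red) and 5 C57BL6/J (blue) libraries, with the CPM of their near-identical copies stacked on top (yellow). The copies fill much of the BALB/c bars, and are barely visible in the C57BL6/J bars.

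Other genes with a large rise in BALB/c lay outside the set examined with copies, and no sums with copies were made for them. Among them were C1rb, a complement protease gene (25.1 ± 10.0 CPM in BALB/c, 7 reads in all in C57BL6/J), Ctse, an aspartic protease (25.3 ± 5.73 CPM and 0.32 ± 0.13 CPM), Ankrd55, Dnaic1 and Cox6b2. Their log2 fold changes were 8.55, 6.30, 6.25, 6.07 and 5.58, and that of C1rb was 10.65 without C57BL6/J replicate 3. Dio1, the deiodinase that activates thyroid hormone in liver, was lower, at 0.89 to 4.99 CPM in BALB/c and 121 to 196 CPM in C57BL6/J (-5.80 ± 0.59). The adult beta-globin Hbb-bt was lower at 3.23 ± 1.17 CPM in BALB/c and 39.1 ± 16.0 CPM in C57BL6/J, while Hbb-bs and Hbb-bt together gave 315 ± 63.9 CPM and 362 ± 139 CPM (exact two-sided permutation p = 0.52). Of the abundant genes named for the smallest p, F12, the coagulation factor XII gene, was lower at 236.0 ± 23.2 CPM in BALB/c and 480.0 ± 24.2 CPM in C57BL6/J (-1.02 ± 0.10), and Pebp1 (1.33 ± 0.17), Serpina11 (2.13 ± 0.32), Aox1 (1.32 ± 0.24) and Ugdh (1.04 ± 0.19) were higher. For each of these 5 abundant genes the strains did not overlap.

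The strain difference at 6 h was then set against that at the other times and drinks in one model. The difference between 6 h and the mean of 0, 3 and 12 h was called for 9 genes (0.0533% of those tested; edgeR), 6 higher and 3 lower, and 729 genes had an unadjusted p under 0.05. Acsm2, Napsa and Fxyd2 had 81.3, 77.1 and 63.2 CPM in BALB/c replicate 1 and at most 0.485, 0.592 and 0.188 CPM in the other BALB/c livers. That library was the one with kidney markers at 1130 CPM. Star, the adrenal cholesterol transporter, had 155 CPM in C57BL6/J replicate 2, whose adrenal markers summed to 698 CPM, and 8.89 CPM in C57BL6/J replicate 3. Without BALB/c replicate 1 no gene was called, and none without C57BL6/J replicate 2, nor without both. Without BALB/c replicate 2, 3 or 4 the count was 14, 16 and 14, and without C57BL6/J replicate 1, 3 or 4 it was 5 each time. Without BALB/c replicate 1 the interaction was -0.04 for Acsm2, 0.20 for Napsa and -0.44 for Fxyd2 on the log2 scale, against 5.55, 5.12 and 6.95 with it, and without C57BL6/J replicate 2 it was -0.54 for Star, against -3.69 with it. The difference between water and the mean of the 3 sugar drinks was called for 0 genes (0.0%) by edgeR and 5 by DESeq2, and 456 genes had an unadjusted p under 0.05.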

How the data were processed

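The authors deposited a table of raw read counts per gene for the livers of the series, with 35275 genes, and no normalized values from it are used here. STAR 2.5, HTSeq 0.6.1, CASAVA and DESeq2, and the builds mm10 and GRCm38, are named in the submitters' processing notes. The handling of multi-mapping reads and of strand is not stated in the labels. RNA was sequenced on an Illumina NovaSeq in paired-end reads of 150 bp, per the labels.

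Genes with low counts were removed (filterByExpr), which left 16886 genes. Counts of all 128 libraries in 26 groups were fitted with edgeR 4.0.16 (R 4.3.3; TMM scaling, quasi-likelihood test), so the groups share one estimate of spread. Calls have a Benjamini-Hochberg adjusted p of at most 0.05 over all genes tested. Log2 fold changes are BALB/c over C57BL6/J, given with their standard error. Sums over genes were compared by exact two-sided permutation. A fold against 0 reads was taken against 3 counts over the group. The members and gene lists were chosen with earlier results of these data known. Named genes were those with the highest and lowest fold changes, the smallest p among abundant genes, up to 4 members per list, and others chosen after their values were seen. The main fit used no block for replicate number, and a block was run as an alternative. On simulated counts for this comparison over 16580 genes, 84% of 2-fold and 98% of 4-fold changes were recovered, and 3.19% of calls were false. The changed genes were drawn only from those above a minimum mean level. No simulated library was given added transcripts of other organs. How far these shares hold for genes of lower level or for libraries with such transcripts was not examined. Alternatives were DESeq2 1.42.0, RLE scaling, no filter, a replicate block, the suffix in some library names (replicate 2 of both strains here, its meaning not given in the labels) as a covariate or left out, the 10 libraries alone, and leaving out libraries. Sequences come from RefSeq (GRCm38.p6) and GENCODE transcripts, read with Biopython 1.88.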

Additional observations from a re-analysis of the deposited data

Results flagged for a closer look

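Among the named genes, some libraries lay far from the other 4 of their group: the gap to the nearest library took up more than 0.71 of the group's range on the log2 scale. This was found in 23 of 208 groups of 5, where chance gives about 1 in 20.

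C57BL6/J replicate 1 was the lowest of its strain for Mup20 (gap share 0.799), Serpina1e (0.744), Serpina1a (0.78), Mup3 (0.772), C6 (0.768) and Slco1a1 (0.774). These are secreted liver proteins, a complement component and an organic anion transporter, several of them typical of male liver. C57BL6/J replicate 3 was the lowest for the sterol enzymes Sqle (0.811) and Cyp51 (0.789), and C57BL6/J replicate 2 the highest for Mup1 (0.719). BALB/c replicate 2 was the lowest for the interferon genes Oasl1 (0.864) and Irf7 (0.808), for Rpl26 (0.792) and Hbb-bt (0.711), and the highest for Cyp2c37 (0.725). BALB/c replicate 1 was the lowest for H2-K1 (0.74), and BALB/c replicate 4 the lowest for H19 (0.742). For Ifi202b, H2-Ea-ps, Cyp2b13 and Cyp3a44 the share was 1.0, because 1 C57BL6/J library held the only reads of its strain.

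BALB/c replicate 1, whose kidney markers summed to 1130 CPM, was the highest for Napsa (0.946), Acsm2 (0.897) and Fxyd2 (0.765). The strain difference at 6 h minus its mean at 0, 3 and 12 h was 5.12 for Napsa, 5.55 for Acsm2 and 6.95 for Fxyd2, and -3.69 for Star, on the log2 scale. Without BALB/c replicate 1 these were 0.20, -0.04 and -0.44 for Napsa, Acsm2 and Fxyd2, and without C57BL6/J replicate 2 the value for Star was -0.54.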

How the results depend on the processing

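The count of 1947 genes called between the strains lay between 1474 and 2706 under the alternatives that kept the threshold: 2076 with DESeq2, 1968 with RLE size factors, 1839 without a filter on low counts, 1474 without the libraries with the name suffix, 2706 with the 10 libraries alone, and 1666 to 1746 when each library was left out in turn. With at least a 2-fold difference the count was 1149, of them 571 higher and 578 lower. With a replicate block it was 2166. Same-numbered libraries of the strains had residual correlations of 0.0976, 0.0785, 0.0328, 0.339 and 0.0421, all positive but not all above 0.1. Differently numbered ones had -0.216 to 0.127. A pairing by replicate number was not tested. The block left 1934 of the 1947 calls.

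The 9 genes called for the difference between 6 h and the other times became 0 with the replicate block, 0 without the libraries with the name suffix, 0 without BALB/c replicate 1 and C57BL6/J replicate 2 together, and 0 to 16 when each library was left out in turn. The 0 genes for the difference between water and sugar became 5 with DESeq2. The cause was not tested. Neither count was computed with the 10 libraries alone, which hold no other times or drinks.

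Values near 0 changed sign. Leaving out each library in turn, the log2 fold change ran from -0.19 to 0.51 for H19, -0.14 to 0.08 for Mvd, -0.11 to 0.45 for Pck1, -0.10 to 0.16 for Cyp2a5, -0.19 to 0.13 for Hbb-bs, -0.15 to 0.13 for Cyp3a11 and -0.18 to 0.02 for Cyp2d9. Without the libraries with the name suffix it was 0.03 for Mvd, 0.05 for Hbb-bs, 0.02 for Cyp2d9 and -0.0 for Cyp3a11, which was also -0.0 with DESeq2 or RLE size factors and -0.02 with the replicate block. Without BALB/c replicate 1 and C57BL6/J replicate 2 together it was 0.05 for Hbb-bs and 0.02 for Cyp2d9.

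In the same way the 6 h difference ran from -0.05 to 5.18 for Napsa, -2.64 to 3.27 for Acsm2 and -0.40 to 8.85 for Fxyd2, and was -0.14, -2.69 and -0.74 without both libraries. The difference from the other times ran from -0.04 to 5.87 for Acsm2 and from -0.44 to 8.80 for Fxyd2, and was -0.09 and -0.78 without both. Of 78 counts of list members, 32 stayed within 1.5 times under every alternative run.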
